A study of Mus musculus with 4 samples.

Results

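Type I interferon response genes were followed in bone marrow stem and progenitor cells of the mouse. The set was a list of 34 genes chosen by name for their known induction by interferon. Of these, 33 were analysed here, out of 32285 genes in the matrices, and Mx1 was not analysed here. Counts of members passing a fold threshold use the 31 members with a mean of at least 5 CPM over the 4 libraries, a minimum that 10123 genes met. Ifit3 and Oas2 stayed under this minimum and are described by their values alone. CPM are the UMIs of a gene for every 1000000 UMIs of its library, and a UMI, or unique molecular identifier, marks one captured RNA molecule.

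The study profiled donor-derived (CD45.2+) cells that were sorted as LSK: without lineage markers and with Sca1 and Kit, 10 weeks after transplantation. RNA was counted in single cells together with 6 barcoded surface antibodies. There was 1 library each of control cells, of cells with Mll3 deleted, of cells with Mll4 deleted and of cells with both deleted (Mll3/4). All groups shared the transplantation, the donor marker and the sort. The driver of the deletion, the strain, the age at transplantation and the number of mice behind a library are not given in the sources used here, and the spread between animals was not measured. Mll3 and Mll4 are the histone methyltransferases encoded by Kmt2c and Kmt2d. Kmt2c was at 68.9 CPM (control), 35.3 (Mll3), 61.3 (Mll4) and 42.3 (Mll3/4). Kmt2d was at 24.6, 21.6, 22.6 and 25.4 in the same order and so did not separate the libraries labelled Mll4. The libraries are therefore named by their labels.

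Type I interferons bind a receptor of the chains Ifnar1 and Ifnar2, and the kinases Jak1 and Tyk2 then activate transcription factors, Stat2 among them. With Irf9, Stat2 takes part in a complex that binds interferon-stimulated response elements near target genes. The induced genes include sensors of viral RNA and DNA and blockers of viral translation and membrane fusion. Others lead to the degradation of RNA, and Usp18 is a brake on the receptor. In the bone marrow, interferon is known to drive quiescent stem cells into cycle, and stem cells are known to keep some of these genes on without infection.

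The core letters of such a response element, GAAANNGAAA on either strand, were looked for in the RefSeq promoter windows (250 bases before to 50 after the start, GRCm38.p6). Of the 33 members, 26 had an entry in that table, and 13 of these held a match, against 3.99% of 27025 gene symbols in the table. The stretches below lie before the start and are shown because these members differ in which library held their highest and lowest level: capitals mark the matches, on whichever strand they lie, and matches may overlap. Isg15, Ifit1 and Ifit3 were highest in the Mll3/4-labelled library, while Oas3, Rsad2 and Bst2 were lowest there. Oas1a was lowest in the Mll4-labelled library.
Isg15, chr4:156200819-156200948, minus strand: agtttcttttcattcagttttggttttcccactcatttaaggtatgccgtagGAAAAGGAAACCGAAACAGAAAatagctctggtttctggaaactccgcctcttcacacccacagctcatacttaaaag
Ifit1, chr19:34640759-34640888, plus strand: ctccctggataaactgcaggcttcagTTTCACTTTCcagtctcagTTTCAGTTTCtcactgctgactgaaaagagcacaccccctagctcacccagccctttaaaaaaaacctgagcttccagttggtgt
Ifit3, chr19:34583359-34583528, plus strand: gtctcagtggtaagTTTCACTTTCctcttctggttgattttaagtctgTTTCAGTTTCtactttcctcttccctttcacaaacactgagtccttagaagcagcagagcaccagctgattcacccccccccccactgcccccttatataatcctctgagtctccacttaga
Oas3, chr5:120777660-120777789, minus strand: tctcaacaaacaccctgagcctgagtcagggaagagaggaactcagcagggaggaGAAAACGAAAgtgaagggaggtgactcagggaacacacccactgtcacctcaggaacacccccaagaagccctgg
Rsad2, chr12:26456453-26456592, minus strand: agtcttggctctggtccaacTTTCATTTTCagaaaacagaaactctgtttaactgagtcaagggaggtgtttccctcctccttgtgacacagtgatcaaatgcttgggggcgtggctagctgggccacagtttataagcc
Bst2, chr8:71537473-71537622, minus strand: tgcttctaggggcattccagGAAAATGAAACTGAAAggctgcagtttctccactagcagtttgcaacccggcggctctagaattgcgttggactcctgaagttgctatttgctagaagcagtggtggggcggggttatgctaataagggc
Oas1a, chr5:120907526-120907585, minus strand: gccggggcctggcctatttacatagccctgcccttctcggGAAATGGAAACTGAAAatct

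Isg15 holds 3 overlapping matches, and Ifit1, Ifit3, Bst2 and Oas1a hold 2 each. The windows of Oasl1, which was high in the Mll3/4-labelled library, and of Ifitm1, which was low there, hold no match, and the corresponding stretches read as follows. That of Ifitm1 lies before the RefSeq start but inside the GENCODE span of the gene.
Oasl1, chr5:114923110-114923239, plus strand: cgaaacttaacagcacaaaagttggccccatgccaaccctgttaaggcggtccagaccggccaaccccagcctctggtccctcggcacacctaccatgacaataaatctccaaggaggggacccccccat
Ifitm1, chr7:140967946-140968075, plus strand: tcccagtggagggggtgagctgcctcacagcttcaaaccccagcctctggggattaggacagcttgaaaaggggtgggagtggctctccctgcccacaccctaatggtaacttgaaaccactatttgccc
Read by direction in the Mll3/4-labelled library, a match was present for 1 of 3 members with an entry that were at least 2-fold higher than the control, for 5 of 7 that were at least 2-fold lower, and for 6 of 15 between. A match in the window thus occurred among members on either side of the control.

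The 4 libraries differed in depth and in the cells they held, and both are given here because they move with the results. Kept barcodes, those with 1000 genes or more and no more than 10% of UMIs from mitochondrial genes, numbered 4748 to 7274 a library, with a median of 8920 to 21400 UMIs a cell and 50792614 to 120700343 UMIs in total. The Mll3/4-labelled library was the shallowest on all of these counts. Almost every cell of that library carried B-lineage transcripts: 10 such markers (among them Cd79a, Vpreb1 and Ebf1) summed to 13159 CPM, against 60.7 in the control, 341 in the Mll3-labelled and 68.0 in the Mll4-labelled library, and 8 stem cell markers summed to 62.3 against 744, 835 and 434. In the Mll4-labelled library, 1788 of 4793 kept cells (37.3%) carried at least 3 markers of mast cells, macrophages, mature B or plasma cells, or innate lymphoid or T cells, against 67 to 119 cells in the others. Pairs of libraries shared 7 to 14 cell barcodes, at most 0.250% of the smaller library. Between whole libraries, cell mix and genotype cannot be told apart, and the marker classes and antibody groups further on narrow the cells compared.

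Over all members, the interferon response was neither uniformly up nor uniformly down in any mutant library. The 33 members summed to 2060 CPM (control), 1964 (Mll3), 1358 (Mll4) and 1110 (Mll3/4). That order came from 3 membrane proteins, Ifitm1, Ifitm3 and Bst2, which made up 1314, 1135, 664 and 151 of these sums. The other 30 members summed to 746, 829, 694 and 958, with the Mll3/4-labelled library highest. Ifi27l2a alone made up 30.0, 18.5, 106 and 196 of these sums, and the place of the Mll3/4-labelled library at the top rested on this gene. Member by member, the Mll3-labelled library held the highest level of 14 of 33, the Mll3/4-labelled of 14, the Mll4-labelled of 3 and the control of 2. The lowest was in the Mll4-labelled library for 16, in the Mll3/4-labelled for 11, in the control for 5 and in the Mll3-labelled for 1. The same counts were not made over all genes, so they are not read as a trait of the members. Over all genes the median log2 ratio to the control was 0.10 (Mll3), -0.11 (Mll4) and -0.12 (Mll3/4).

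**Figure D1:**
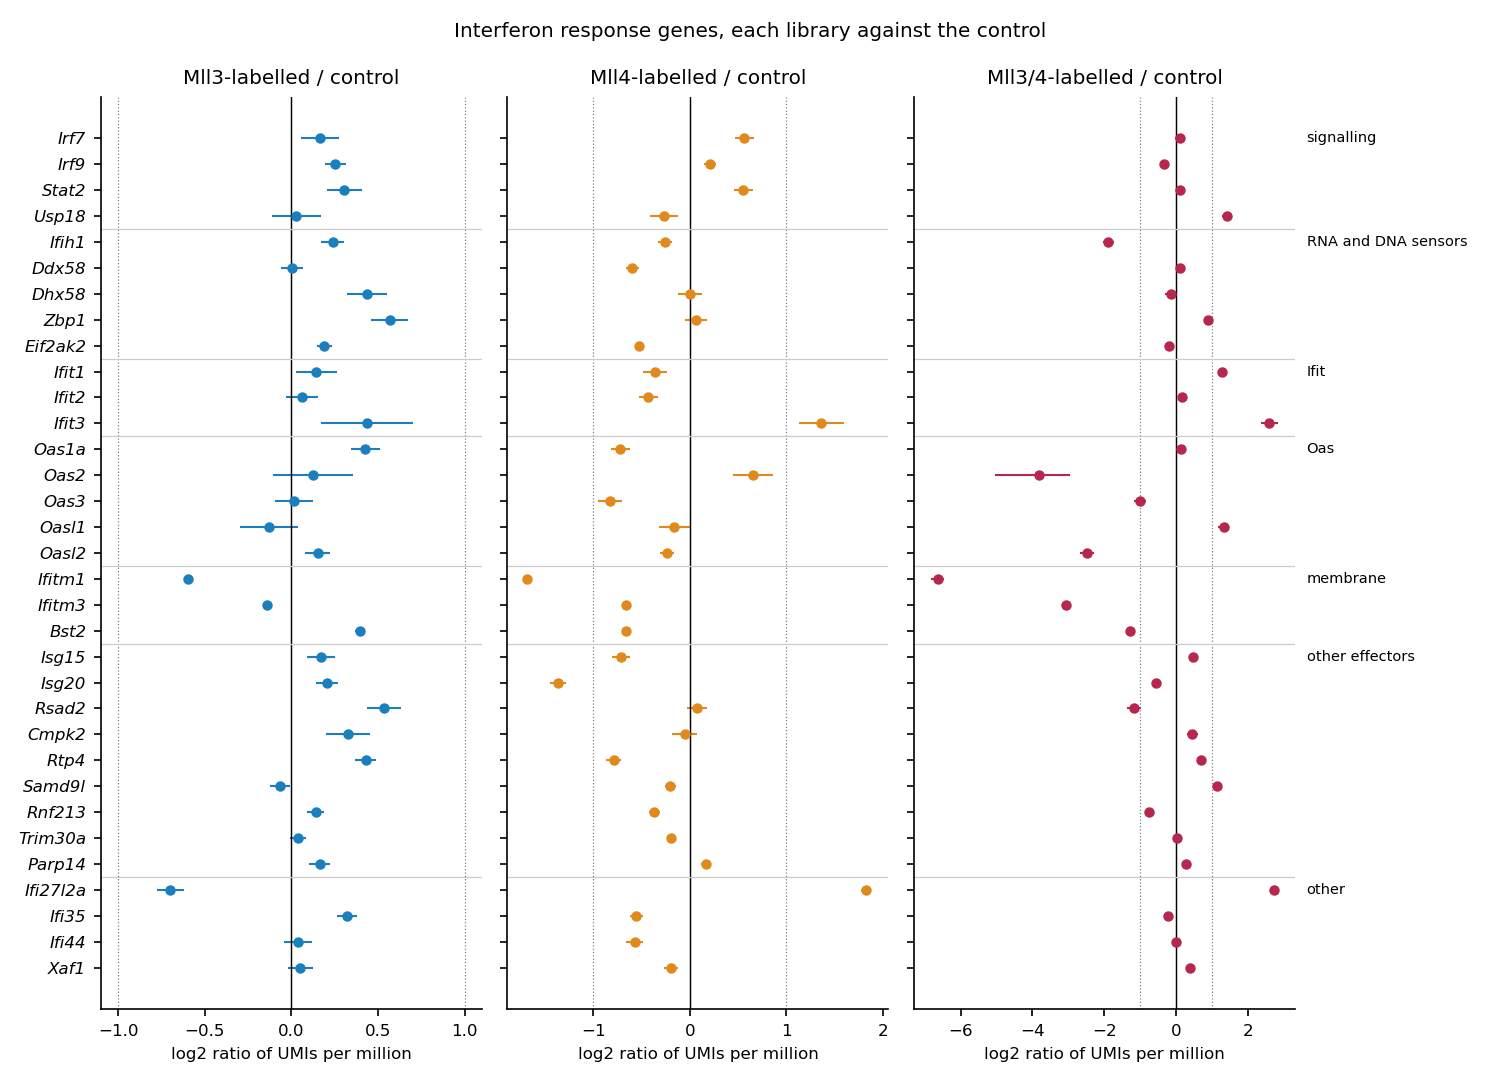
Log2 ratio of each member (rows, grouped by role) in the Mll3-labelled, Mll4-labelled and Mll3/4-labelled library to the control library, with 95% counting intervals as horizontal bars; dotted lines mark 2-fold, and the 3 panels have different horizontal scales. In the left panel all points of members lie within 2-fold, and in the right panel they run from -6.63 for Ifitm1 to 2.71 for Ifi27l2a.

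Ratios are given below as log2 of CPM in a mutant library over the control, after adding 0.5 UMIs to each sum, and brackets hold exact 95% intervals for counting error only. With 1 library a genotype there was no test of a difference between genotypes, and a member is counted as higher or lower when it passed 2-fold. In the Mll3-labelled library 0 of 31 members were at least 2-fold higher (1.85% of all genes) and 0 were at least 2-fold lower (0.958%), or 2.81% of all genes in either direction. Their median ratio was 0.16, against 0.10 over all genes, and the interval lay above 0 for 19 members (53.9% of all genes), below 0 for 4 (21.8%) and included 0 for 8. In the Mll4-labelled library 1 member was higher (6.44% of all genes) and 2 were lower (4.74% of all genes), with a median of -0.26 against -0.11. Its intervals lay above 0 for 5 members (34.5% of all genes) and below 0 for 22 (52.4%). In the Mll3/4-labelled library 5 members were higher (8.0% of all genes) and 7 were lower (13.7% of all genes), with a median of 0.09 against -0.12, and intervals above 0 for 14 (34.8%) and below 0 for 12 (51.9%). That median turned to -0.19 when the minimum was 20 CPM, which 19 members met. The 3 comparisons share the control library, so they are set side by side and no correlation between them is given.

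Among the members that act in the signal itself, the receptor brake was the one that stood apart. Usp18 (ENSMUSG00000030107, chromosome 6, 121245906 to 121270917, GRCm38), a protease that removes Isg15 from proteins and restrains Ifnar2, was at 7.37 CPM (control), 7.52 (Mll3), 6.13 (Mll4) and 19.6 (Mll3/4). The last stood alone, with a log2 ratio of 1.41 (1.28 to 1.54). The partners of the response complex stayed within 2-fold: Irf9 was at 36.6, 43.6, 42.2 and 28.6, and Stat2 at 12.5, 15.5, 18.4 and 13.5. Irf7, the factor that amplifies interferon production, was at 11.3, 12.7, 16.8 and 12.1 CPM. Its excess in the Mll4-labelled library (0.57) was not seen without the cells with markers of other types, where the ratio was -0.14 (-0.26 to -0.02).

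The sensors split. Ifih1 (ENSMUSG00000026896, chromosome 2, 62595798 to 62646255), the sensor of long double-stranded RNA known as MDA5, was at 30.1 CPM (control), 35.5 (Mll3), 25.2 (Mll4) and 8.11 (Mll3/4). The Mll3/4-labelled library was thus 3.70-fold below the control, a log2 ratio of -1.89 (-2.04 to -1.74). Ddx58, which encodes RIG-I, the sensor of RNA with a 5′ triphosphate, stood at 34.9, 35.0, 23.1 and 37.4, so that these related RNA sensors took different courses in the Mll3/4-labelled library. Zbp1, a sensor of Z-form nucleic acids, was at 10.7, 15.8, 11.1 and 19.7, and gave the highest ratio of any member in the Mll3-labelled library, 0.57 (0.46 to 0.67). Dhx58 (LGP2, a regulator of both RNA sensors) was at 9.10, 12.3, 9.11 and 8.19, highest in the Mll3-labelled library (0.44, 0.32 to 0.55). Eif2ak2, the kinase PKR that halts translation on double-stranded RNA, ranged from 49.3 in the Mll4-labelled to 80.7 in the Mll3-labelled library.

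The Ifit genes lie together on chromosome 19 between 34550694 and 34650009. Ifit1 (ENSMUSG00000034459) encodes a protein that binds viral RNA lacking host cap methylation. Ifit1 was at 10.2 CPM (control), 11.2 (Mll3), 7.90 (Mll4) and 24.6 (Mll3/4), a ratio of 1.27 (1.16 to 1.39) in the last. Ifit3 (ENSMUSG00000074896), under the minimum, was at 1.79, 2.43, 4.61 and 10.8, so that the 3 mutant libraries lay above the control in that order, the last with a log2 ratio of 2.58 (2.36 to 2.82). Without the cells with markers of other types Ifit3 was at 1.69, 2.41, 2.16 and 10.7, and Mll4 then lay below Mll3. Ifit2 did not follow them: it was at 16.5, 17.2, 12.2 and 18.3. Ifit3 has a near-identical neighbour, Ifit3b, listed at 0.411, 0.557, 0.928 and 3.72 CPM, and reads from this pair may not have been assigned with certainty.

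The oligoadenylate synthetase genes, which make the messenger that activates RNase L, and their relatives Oasl1 and Oasl2 went both ways. Oasl2 (ENSMUSG00000029561, chromosome 5, 114896936 to 114912234) was at 26.1 CPM (control), 29.1 (Mll3), 22.2 (Mll4) and 4.69 (Mll3/4), a ratio of -2.48 (-2.68 to -2.29). Oasl1 (ENSMUSG00000041827, chromosome 5, 114923240 to 114937915), on the same strand just beyond it, was at 5.62, 5.15, 5.02 and 14.0, a ratio of 1.31 (1.16 to 1.47). The neighbours were thus on opposite sides of the control, both by more than 2-fold. Oas3 was at 12.2, 12.3, 6.90 and 6.06, with ratios of -0.82 for Mll4 and -1.01 for Mll3/4, the latter past 2-fold. Oas1a was at 17.9, 24.0, 10.9 and 19.6, lowest in the Mll4-labelled library (-0.72, -0.82 to -0.62). Oas2, under the minimum, was at 2.66, 2.90 and 4.18 in the first 3 libraries and at 0.177 (9 UMIs) in the Mll3/4-labelled one. Members of the Oas1 family share much of their sequence, so their counts are uncertain where reads could fit more than 1 gene.

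Among the membrane members, Ifitm1 had the ratio farthest from 0 of all 33 members. Ifitm1 (ENSMUSG00000025491, chromosome 7, 140967221 to 140969825), which blocks fusion of virus and host membranes and is abundant in stem cells, was at 523 CPM (control), 346 (Mll3), 163 (Mll4) and 5.28 (Mll3/4). Each mutant library was below the control, by 1.69 on the log2 scale in the Mll4-labelled (-1.69, -1.71 to -1.66) and by 98.9-fold in the Mll3/4-labelled library (-6.63, -6.81 to -6.46). Its neighbour Ifitm3 (chromosome 7, 141009586 to 141010770) was at 615, 557, 390 and 73.8 in the same order of libraries, a ratio of -3.06 (-3.11 to -3.01) in the last. Bst2 (tetherin, which holds budding virus on the cell surface) was at 176, 232, 111 and 72.5, highest in the Mll3-labelled and lowest in the Mll3/4-labelled library. The Ifitm genes are close relatives, and their neighbour Ifitm2, from the wider pathway list, was at 655, 534, 420 and 266.

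Of the other effectors, Samd9l, Rsad2 and Isg20 passed 2-fold in 1 library each. Samd9l (ENSMUSG00000047735, chromosome 6, 3372257 to 3399572), an antiviral brake on translation, was at 44.9 CPM (control), 42.8 (Mll3), 38.9 (Mll4) and 98.6 (Mll3/4) (1.14, 1.08 to 1.19). Rsad2 (viperin, which makes a chain-terminating nucleotide) was at 12.1, 17.5, 12.7 and 5.36, with the Mll3-labelled library on top and the Mll3/4-labelled one lowest (-1.17, -1.36 to -0.98). Cmpk2, its neighbour on chromosome 12 and a nucleotide kinase, was at 8.22, 10.3, 7.93 and 11.2, so this pair too lay on different sides of the control in the Mll3/4-labelled library. Isg20, an RNA exonuclease, was at 34, 39.2, 13.2 and 22.8, and was 2.58-fold below the control in the Mll4-labelled library (-1.37, -1.45 to -1.28). Isg15, the ubiquitin-like tag of the response, was at 21, 23.6, 12.8 and 28.9, lowest in the Mll4-labelled and highest in the Mll3/4-labelled library. Rtp4 followed the same order with 33.0, 44.4, 19.1 and 52.7. Rnf213, a giant ubiquitin ligase, was at 54.5, 60.1, 42.3 and 32.3. Trim30a and Parp14 stayed between 56.2 and 66.0 and between 39.4 and 47.0 CPM over the 4 libraries.

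Ifi27l2a (ENSMUSG00000079017, chromosome 12, 103442167 to 103443680), which encodes a small protein induced by interferon, gave the highest ratio of any counted member in both libraries labelled Mll4 and the lowest in the Mll3-labelled one. It was at 30.0 CPM (control), 18.5 (Mll3), 106 (Mll4) and 196 (Mll3/4). The ratios were -0.70 (-0.78 to -0.62), 1.82 (1.77 to 1.88) and 2.71 (2.65 to 2.77). The rest of this group stayed within 2-fold in all libraries. Ifi35 was at 39.4, 49.2, 26.8 and 33.5, Ifi44 at 22.2, 22.8, 15 and 21.9, and Xaf1, a promoter of cell death, at 26.6, 27.6, 23.2 and 34.9.

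**Figure D2:**
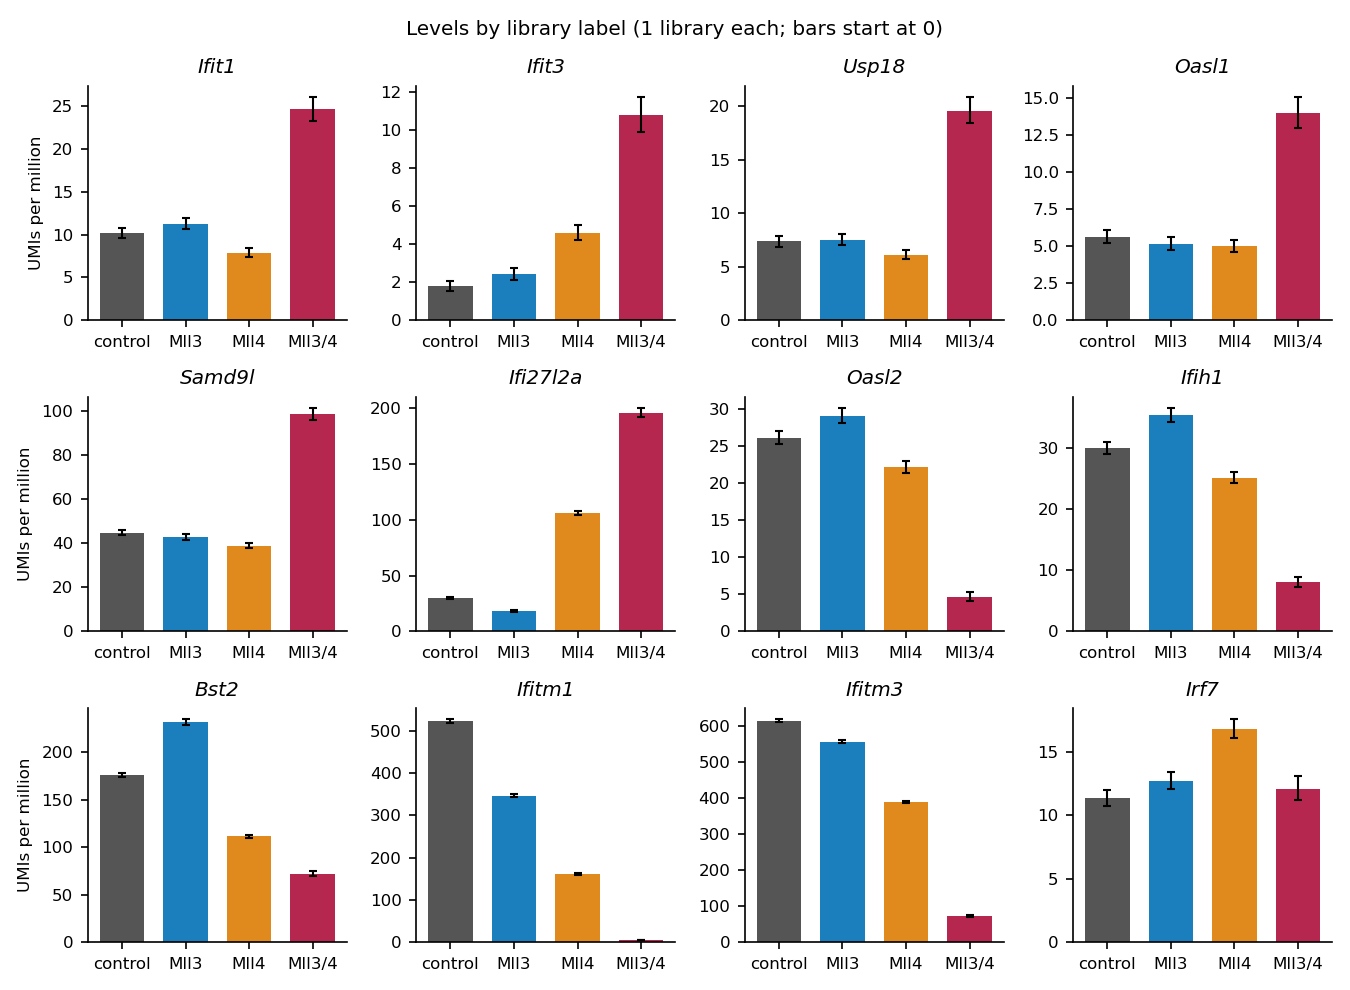
CPM of 12 members in each of the 4 libraries, with 95% Poisson intervals for counting error; each panel has its own axis from 0. The first 6 genes are highest in the Mll3/4-labelled library and the next 5 are lowest there, with Ifitm1 at 523 in the control and 5.28 in the Mll3/4-labelled library.

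The rest of the pathway was read from 97 further genes, of which 74 met the minimum. Of these, 1 was higher (1.85% of all genes) and 0 were lower (0.958%) in the Mll3-labelled library. In the Mll4-labelled library 7 were higher (6.44%) and 3 lower (4.74%), and in the Mll3/4-labelled library 7 were higher (8.0%) and 20 lower (13.7%). Interferon itself was hardly seen: of 12 ligand genes, the type I genes Ifnb1, Ifna2, Ifna4, Ifna5, Ifna6 and Ifne had 0 UMIs in every library, Ifna1 had 1 UMI in the control, and Ifnz had 14 (control), 11 (Mll3), 10 (Mll4) and 12 (Mll3/4). Ifng, the type II ligand, had 0 UMIs in the control and Mll3, 18 in Mll4 and 5 in Mll3/4. A count of 0 in the control allows up to 0.0251 CPM, taking 3 UMIs as the floor (0.0309 by the exact Poisson limit), and cells outside the sort were not measured. The receptor chains parted in the Mll3/4-labelled library: Ifnar1 was at 30.4, 29.9, 34.9 and 62.9 (1.05, 0.98 to 1.12) and Ifnar2 at 112, 115, 118 and 57.7 (-0.96, -1.02 to -0.90). Uba7, the enzyme that activates Isg15 for attachment, was at 56.8, 88.3, 30.2 and 15.3, highest in the Mll3-labelled library. Aim2, a DNA sensor, was at 27.7, 19.3, 28.0 and 9.77.

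By ratio, Phf11d, Tmem173 and Ptpn6 were the lowest genes of the pathway list in the Mll3/4-labelled library. Tmem173, which encodes the adaptor STING, was at 41.3, 28.4, 27.6 and 2.30 CPM (-4.16, -4.44 to -3.90), and Cgas, the enzyme upstream of it, at 46.7, 46.3, 33.6 and 7.38. Ptpn6 (SHP-1, a phosphatase that dampens receptor signals) was at 102, 95.8, 93.0 and 6.71, and Phf11d at 21.5, 14.0, 9.48 and 0.906. At the other end, Ifi213 was at 1.01, 0.850, 4.39 and 45.2 (5.49, 5.23 to 5.77), Slfn2 at 11.3, 37.2, 63.8 and 80.1, and Ifngr2 at 19.8, 15.9, 30.0 and 70.0. Slfn2 was the one pathway gene past 2-fold in the Mll3-labelled library (1.72). In the Mll4-labelled library Ifi204 (4.66), Slfn2 (2.50) and Irf8 (2.19), a factor of the monocyte lineage, led, and Ifi27 (-1.50), Phf11d (-1.18) and Oas1c (6.40 in the control and 3.20) were lowest. Ly6a, an interferon-induced gene that encodes the sort marker Sca1, was at 93.4, 133, 119 and 255 CPM.

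A cell that answers interferon switches on many of these genes at once, so single cells were asked whether they held several core genes together. The core list was Ifit1, Ifit2, Ifit3, Isg15, Irf7, Oasl1, Oasl2, Usp18, Rsad2, Cmpk2 and Ifi44. Cells were thinned to 3000 UMIs each, which left out 14 (control), 17 (Mll3), 134 (Mll4) and 33 (Mll3/4) cells, and a joint response was called from UMIs of at least 3 of the 11 genes. It was present in 145 of 7260 control cells, or 2.0% (1.69 to 2.35, exact binomial interval for counting error). The Mll3-labelled library had 166 of 6084 cells, or 2.73% (2.33 to 3.17), and the Mll4-labelled 127 of 4659, or 2.73% (2.28 to 3.23). The Mll3/4-labelled library had 164 of 4715, or 3.48% (2.97 to 4.04), the highest of the 4, and its interval did not overlap that of the control.

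The order of the libraries changed with the number of core genes asked for. Cells with at least 1 core gene made up 31.7% of the control, 33.9% of the Mll3-labelled, 25.5% of the Mll4-labelled and 32.8% of the Mll3/4-labelled library. With at least 5 core genes the shares were 0.372%, 0.329%, 0.687% and 0.976%. The Mll4-labelled library was thus lowest at 1 gene and second highest at 5. Without thinning the shares at 3 genes were 23.3%, 28.8%, 24.3% and 14.0%, with median UMIs of 14454, 15381, 21400 and 8920 a cell, so that the Mll3/4-labelled library was lowest. It was also lowest, with 10.2% against 20.6% in the control, when 6 of all members were asked for in thinned cells. That rule also counts the membrane members. Ifitm1 was found in 71.1% of thinned control cells and 0.318% of thinned Mll3/4-labelled cells, Ifitm3 in 80.2% and 16.7%, and Bst2 in 40.3% and 17.2%. Their part in the 10.2% was not tested. No class here is known to lack the core genes, so the part of free RNA was not tested. The lowest share with at least 3 core genes was 0 of 232 cells with granulocyte or monocyte markers in the Mll3-labelled library (median 23819 UMIs). This allows up to 1.29%, taking 3 cells as the floor (1.58% by the exact limit).

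Core genes were found in the same cells. In the control, Ifit1 had a UMI in 13 of 37 cells (35.1%) that held one of Ifit3, and in 2.92% of the cells that did not. In the Mll3/4-labelled library these were 45 of 177 cells (25.4%) and 4.78%. Irf7 was found in 9.03% of control cells with Isg15 and in 3.20% of those without, and in 15.6% and 3.05% in the Mll3/4-labelled library.

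Which core genes the responding cells held differed between the libraries. Among responding cells, Oasl2 was present in 61.4% (control), 56.0% (Mll3), 61.4% (Mll4) and 20.1% (Mll3/4). Rsad2 was present in 42.1%, 41.0%, 43.3% and 15.2%. The reverse held for Ifit3, with 11.7%, 12%, 29.1% and 34.8%, and for Usp18, with 18.6%, 18.7%, 25.2% and 42.7%. These genes also chose the responding cells, so their shares there are not separate from their levels in each library. Of all thinned cells in the control and the Mll3/4-labelled library, Oasl2 was found in 8.14% and 1.61%. Rsad2 was found in 4.02% and 1.63%, Ifit3 in 0.510% and 3.75%, and Usp18 in 2.18% and 5.87%.

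**Figure D3:**
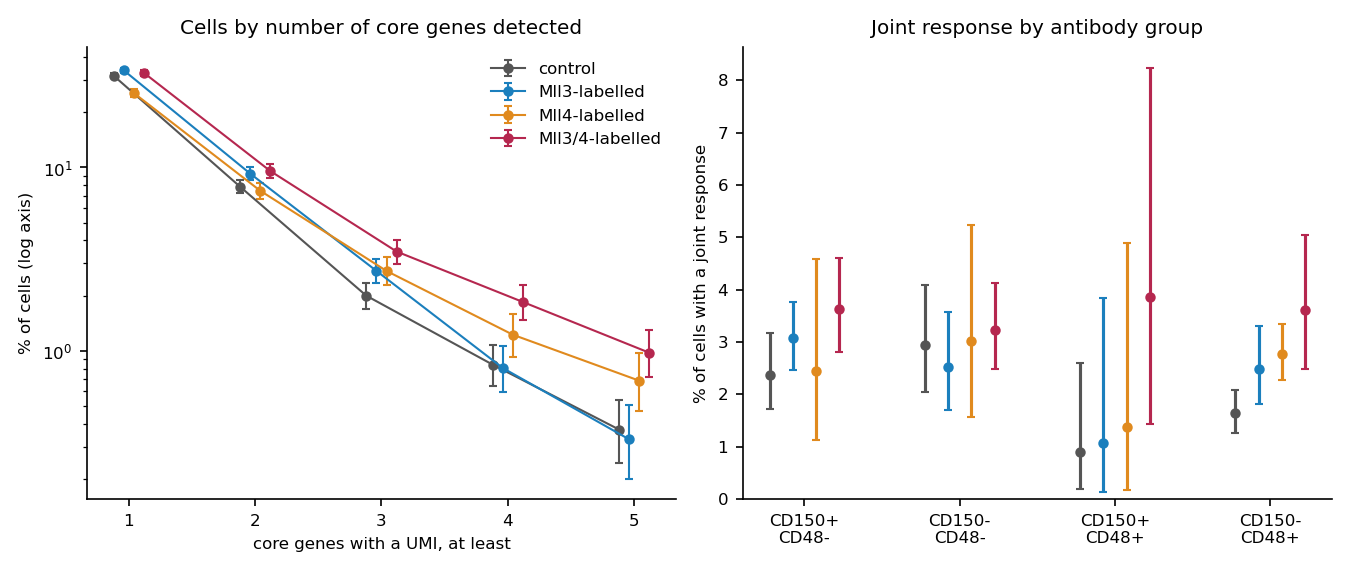
Left: percent of cells (thinned to 3000 UMIs, log axis) with UMIs of at least 1 to 5 of 11 core genes, by library. Right: percent of cells with at least 3 core genes within each CD150/CD48 antibody group; bars are 95% exact binomial intervals, and the Mll3/4-labelled library is highest at 3 genes with 3.48% against 2.0% in the control.

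Members outside the core list, which had no part in choosing these cells, were mostly higher in them in each library. Of 22 such members, the interval of the ratio to the other cells of the same library lay above 0 for 20 in the control (5.11% of all genes), for 21 in Mll3 (7.01%), for 19 in Mll4 (9.37%) and for 20 in Mll3/4 (4.27%). It lay below 0 for 0 of them in each library, against 4.91% (control), 6.55% (Mll3), 11.7% (Mll4) and 3.34% (Mll3/4) of all genes. The median ratios were 1.51, 1.28, 2.15 and 1.83. Zbp1 led in the control, with 64.4 CPM in responding and 11.3 in other cells (2.53, 1.89 to 3.07). Rtp4 (2.51) and Dhx58 (2.40) followed. Ifi27l2a led in the Mll3-labelled library, with 110 and 18.9 (2.56). Oas3 led in the Mll4-labelled library (3.54) and, leaving aside Oas2 with 1 UMI on each side, in the Mll3/4-labelled library (3.50), although its level over the whole of both libraries was below the control. Responding cells were shallower than the others before thinning, with median UMIs of 11060 against 14579 in the control and 7608.5 against 9033 in the Mll3/4-labelled library. They also differed in cell mix. Cells with stem cell markers made up 38.6% of responding and 24.8% of all thinned cells of the control. Cells with macrophage markers made up 39.4% and 11.4% in the Mll4-labelled library. Cells with B-lineage markers made up 100% and 99.4% in the Mll3/4-labelled library. The part of cell mix in these ratios was not tested.

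Ifitm1 and Ifitm3 parted in these cells in the control and the Mll4-labelled library. In the Mll3-labelled library the intervals of their ratios overlapped (0.53 to 0.85 for Ifitm1 and 0.68 to 0.94 for Ifitm3). Ifitm3 was higher in responding cells by 0.99 (control), 0.81 (Mll3), 1.42 (Mll4) and 2.06 (Mll3/4). In the last it reached 276 CPM in responding cells against 66.3 in the others. Ifitm1 was higher by 0.34 in the control and 0.70 in the Mll3-labelled library. It did not differ beyond counting error in the Mll4-labelled (-0.01, -0.42 to 0.35). In the Mll3/4-labelled library it had 0 UMIs in the 164 responding cells against 31 in the other 4551, and counting error allows a ratio of up to 1.81. Macrophage-marker cells of the Mll4-labelled library had Ifitm1 at 50.1 CPM against 183 in its cells without other-type markers. Ifitm3 was at 908 against 360, and the part of cell mix was not tested.

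**Figure D4:**
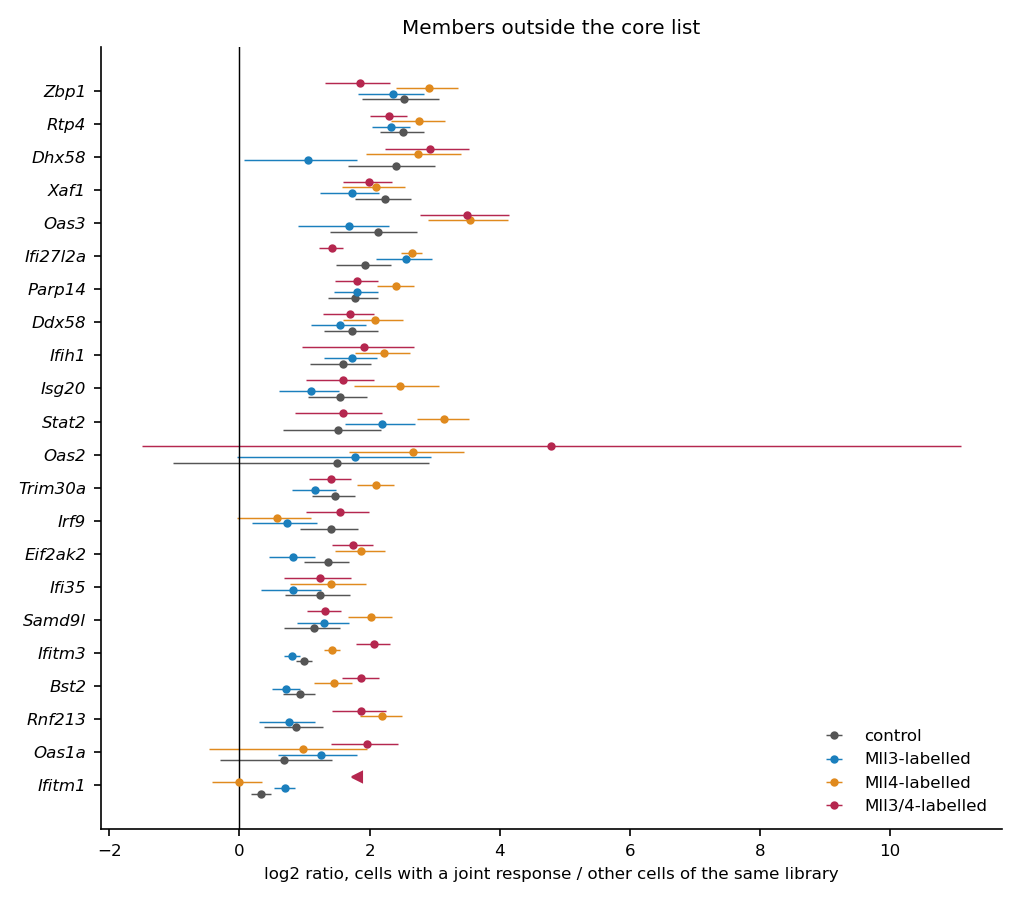
Log2 ratio of each of 22 members outside the core list (rows) between cells with a joint response and the other cells of the same library, thinned counts, with 95% counting intervals; the left-pointing triangle marks the upper bound for Ifitm1 in the Mll3/4-labelled library, which had 0 UMIs in responding cells. Nearly all points lie right of 0, with medians of 1.28 to 2.15 by library.

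Because the Mll3/4-labelled library was made up of cells with B-lineage markers, its members were also set against the same class in the Mll3-labelled library, the only other one with at least 50 such cells (193 against 4721). Cells of this class held at least 3 of the 10 markers after thinning, which marks a range of cells and not a type. Of 31 members, 10 were at least 2-fold higher in the Mll3/4-labelled cells (12.5% of all genes) and 2 were lower (12.6% of all genes), with a median of 0.25 against -0.01 over all genes. The 10 were Ifit1 (2.36, 1.80 to 3.05), Ifit2, Usp18, Oasl1, Samd9l (2.39), Ifi27l2a (2.61), Ifi44, Ddx58, Zbp1 and Rsad2. All 5 members that were higher against the control were among them. Both comparisons rest on nearly the same Mll3/4-labelled cells (4721 of 4748), so this overlap is not independent.

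Of the 7 members lower against the whole control, 5 were not past 2-fold lower within this class. Ifih1 was at 9.88 CPM in the Mll3-labelled B-marker cells and 7.91 in the Mll3/4-labelled ones (-0.33, -0.76 to 0.14), and Oasl2 at 5.35 and 4.55 (-0.26, -0.82 to 0.41). Inside the Mll3-labelled library, the B-marker cells stood below the other cells for Ifih1 (-1.88), Oasl2 (-2.47), Ifitm3 (-2.46), Rsad2 (-3.56) and Ifitm1 (-3.58), and also for Ifit1 (-1.26), Samd9l (-1.21) and Zbp1 (-1.03), which were above the control in the Mll3/4-labelled library. Ifi27l2a stood above (0.86), and the intervals of Usp18 and Oasl1 included 0. Ifitm3 was at 105 and 68.5, and Rsad2 was higher in the Mll3/4-labelled cells, at 1.44 and 5.39.

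Ifitm1 and Bst2 remained lower within the class. Ifitm1 was at 30.0 CPM in the Mll3-labelled B-marker cells and 0.160 in the Mll3/4-labelled ones (-7.47, -8.79 to -6.54). In that library 8 UMIs of Ifitm1 lay in 4 of 4721 B-marker cells (0.0847%), and the other 260 UMIs lay in 16 of the 27 cells without B markers. Bst2 was at 169 and 71.6 (-1.24, -1.35 to -1.13), and 2010 of the 4721 cells (42.6%) held a UMI of it. The Mll3-labelled class rests on 193 cells of 1 library, and no genotype effect can be told apart from that library. Its median was 23441 UMIs a cell, against 8901 in the Mll3/4-labelled class. No doublets were removed for these values, and the part of doublets or free RNA in them was not tested. Joint responses were found in 2 of 193 of these Mll3-labelled cells (1.04%, 0.126 to 3.69) and in 164 of 4688 Mll3/4-labelled cells (3.50%, 2.99 to 4.06).

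In the Mll4-labelled library, members were high in cells with macrophage markers. There, 541 such cells were set against the 3005 cells of that library without markers of the 4 other types: 23 of 31 members were at least 2-fold higher (14.0% of all genes), 1 was lower (21.8% of all genes), and the median was 1.86 against -0.21 over all genes. Ifi27l2a was at 828 and 48.7 CPM (4.09, 4.03 to 4.14), Irf7 at 92.0 and 10.2, and Oasl2 at 81.6 and 18.1. Ifitm1 went the other way, with 50.1 and 183. The share with a joint response was 9.42% (7.07 to 12.2) of macrophage-marker cells, 4.36% (2.89 to 6.28) of cells with mature B or plasma markers, 1.04% (0.381 to 2.24) of mast-marker cells and 0.364% (0.00921 to 2.01) of cells with innate lymphoid or T markers. A cell could fall in several of these classes, so the shares do not come from separate cells. Cells with markers of any of the 4 types made up 65 of the 127 responding cells.

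Left without these cells in every library, the Mll4-labelled library lay lower. The median ratio to the control was -0.57 against -0.12 over all genes, 0 members were at least 2-fold higher (5.46% of all genes), and 4 were lower (4.8% of all genes): Oas3 (-1.12), Ifitm1 (-1.52), Isg20 (-1.55) and Rtp4 (-1.07). Ifi27l2a was then at 28.9 in the control and 48.7 in the Mll4-labelled library (0.76, 0.69 to 0.82), against 1.82 with all cells. Intervals lay below 0 for 26 members (53.5% of all genes) and above it for 3 (32.2%), Irf9, Stat2 and Ifi27l2a. The share with a joint response was 2.08% (1.6 to 2.66), beside 1.97% in the control without the same cells. The cells left out were not chosen by granulocyte or monocyte markers. Cells with at least 3 such markers made up 45.2% of all kept Mll4-labelled cells and 4.39% of the control. In control cells of that class Oas3, Ifitm1, Isg20 and Rtp4 were at 6.56, 319, 13.5 and 16.99 CPM. They were at 12.2, 525, 33.4 and 33.1 in the control without cells of other types. The part of this cell mix in the median of -0.57 was not tested.

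Among cells with at least 3 stem cell markers, the Mll3-labelled library had a median ratio of 0.07 to the control (0.08 over all genes) with 0 members higher (1.77% of all genes) and 0 lower (1.98%). The Mll4-labelled library had -0.24 (-0.02 over all genes) with 0 higher (4.37%) and 2 lower (1.69%), Ifitm1 and Isg20. Joint responses were found in 3.11% (2.36 to 4.02) of control, 3.37% (2.60 to 4.28) of Mll3-labelled and 2.86% (1.61 to 4.67) of Mll4-labelled cells of this class. Among cells with at least 3 granulocyte or monocyte markers, the Mll3-labelled library had a median of 0.04 (0.12 over all genes), 0 members higher (1.97%) and 3 lower (1.63%), Usp18 (-1.09, -2.21 to -0.15, on 12 UMIs), Ifitm1 (-1.09) and Ifi27l2a (-1.21). The Mll4-labelled library had -0.15 (-0.07 over all genes), 2 higher (7.03%), Stat2 (1.15) and Ifi27l2a (1.54), and 2 lower (6.45%), Ifitm1 (-2.29) and Isg20 (-1.17). Oas3 and Rtp4, past 2-fold lower in the Mll4-labelled library without cells of other types, were not past 2-fold in either class.

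Surface CD150 and CD48, which separate stem cells from multipotent progenitors in normal LSK cells, gave 4 antibody groups. Within the control, members were higher in the stem-cell-like CD150+CD48- group than in CD150-CD48+ cells: intervals lay above 0 for 22 of 31 (37.4% of all genes) and below 0 for 2 (28.2%), with a median of 0.32 against 0.04 over all genes. Rsad2 was at 21.2 and 8.08 CPM (1.39, 1.22 to 1.57) and Ifit1 at 15.7 and 7.44 (1.08, 0.88 to 1.27), the 2 members past 2-fold (3.38% of all genes). Ifi27l2a was at 12.1 and 38.3 (-1.66, -1.84 to -1.49), the only one past 2-fold the other way (3.37%). The medians were 0.20 (Mll3), 0.60 (Mll4) and 0.07 (Mll3/4) in the others, against 0.06, 0.10 and 0.02 over all genes. In the Mll4-labelled library 7.24% of CD150+CD48- and 43.9% of CD150-CD48+ cells carried markers of other types. The part of cell mix in its median was not tested.

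In the Mll3/4-labelled library this comparison of CD150+CD48- with CD150-CD48+ cells had 0 members past 2-fold in either direction (0.316% and 2.49% of all genes). Ifit1 was at 24.6 in CD150+CD48- and 27.2 in CD150-CD48+ cells, and Ifi27l2a at 203 and 193. In that library 96.9% to 99.8% of the cells of each group carried B-lineage markers. In the control 46.0% of CD150+CD48- cells carried stem cell markers, against 0% in the Mll3/4-labelled library, so the same gate held other cells there. Ifitm1 was at 57.0 CPM (89 UMIs) in CD150+CD48+ cells of that library. It was at 4.38, 1.59 and 6.62 in its CD150+CD48-, CD150-CD48- and CD150-CD48+ cells. Over that whole library, 8 UMIs of Ifitm1 lay in B-marker cells and 260 in the 27 cells without B markers. The value of the CD150+CD48+ group thus rests mostly on a few cells without B markers.

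Within CD150+CD48- cells, the Mll3-labelled library had 0 members higher (1.14% of all genes) and 0 lower (2.51%) than the same group of the control, and the Mll4-labelled library 0 higher (4.39%) and 2 lower (2.67%), Ifitm1 (-1.29) and Isg20 (-1.15). The Mll3/4-labelled library had 3 higher (8.64%), Usp18, Oasl1 and Ifi27l2a, and 6 lower (14.3%), led by Ifitm1 (-7.43), Ifitm3 (-3.56) and Ifih1 (-2.60). Ifi27l2a was at 12.1 (control), 7.14 (Mll3), 11.8 (Mll4) and 203 (Mll3/4), a ratio of 4.07 in the last. Its excess in the Mll4-labelled library was not found in this group (-0.03, -0.36 to 0.28). It was 0.88 (0.68 to 1.09) in CD150-CD48-, 0.99 (0.68 to 1.31) in CD150+CD48+ and 1.72 (1.66 to 1.78) in CD150-CD48+ cells, where 12.6%, 9.66% and 43.9% of cells carried markers of other types, against 7.24% in CD150+CD48- cells. Ifitm1 was at 759, 459, 311 and 4.38 in CD150+CD48- cells and at 416, 162, 136 and 6.62 in CD150-CD48+ cells, below the control in each mutant library in both.

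The medians over members differed by group in the Mll3/4-labelled library. They were -0.12 in CD150+CD48-, -0.41 in CD150-CD48-, 0.60 in CD150+CD48+ and 0.11 in CD150-CD48+ cells, against -0.11, -0.15, -0.11 and -0.11 over all genes. In CD150+CD48+ cells, the smallest group with 159 cells in that library, 10 members were at least 2-fold higher (10.2% of all genes) and 4 were lower (13.7%). In the Mll4-labelled library the medians ran from -0.23 to -0.18. Beyond the stem-cell-like group, calls were few outside the Mll3/4-labelled library. In CD150-CD48- cells, Mll3 had 0 higher (1.43%) and 0 lower (1.72%), Mll4 had 0 higher (4.72%) and 2 lower (3.0%), Ifitm1 and Isg20, and Mll3/4 had 2 higher (8.03%), Usp18 and Ifi27l2a, and 9 lower (15.3%). In CD150+CD48+ cells, Mll3 had 1 higher (3.07%), Rtp4, and 0 lower (1.34%), and Mll4 had 0 higher (5.19%) and 0 lower (1.78%). In CD150-CD48+ cells, Mll3 had 0 higher (2.5%) and 1 lower (1.02%), Ifitm1, Mll4 had 1 higher (7.37%), Ifi27l2a, and 2 lower (6.54%), Ifitm1 and Isg20, and Mll3/4 had 6 higher (8.4%) and 7 lower (13.2%).

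**Figure D5:**
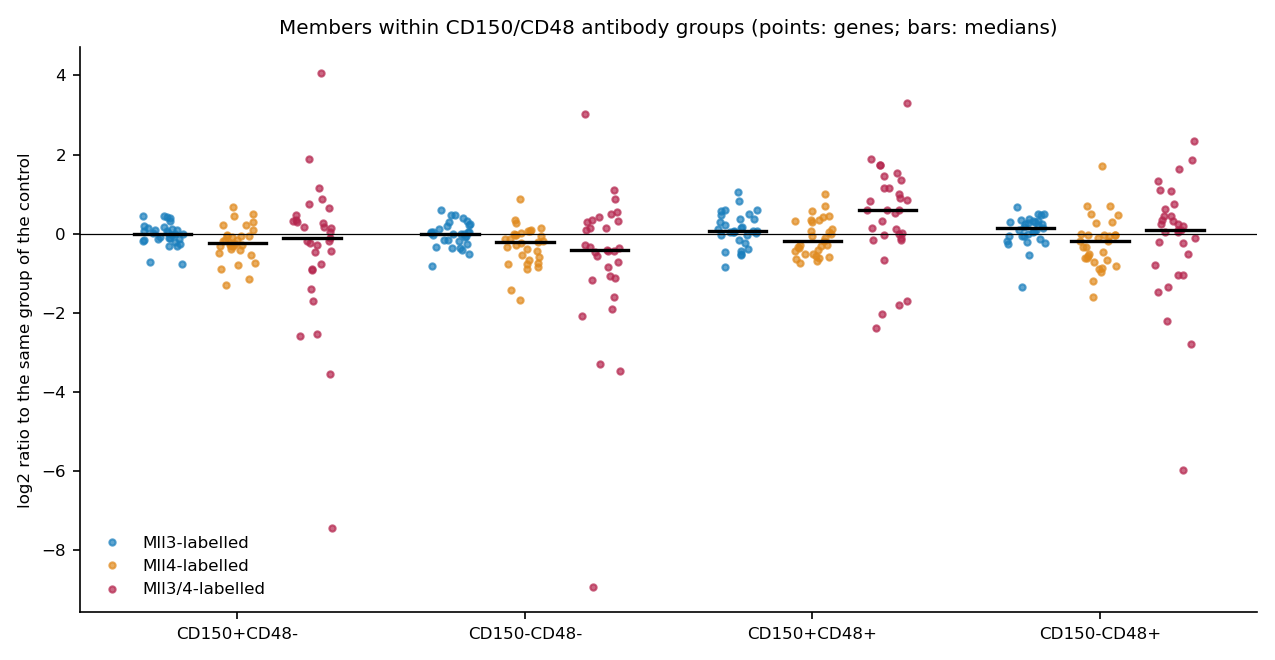
Log2 ratio of each of the 31 members (points) to the same antibody group of the control, by CD150/CD48 group and library; black bars are medians over members and the sideways scatter carries no meaning. In each group of the Mll3/4-labelled library the top point is Ifi27l2a and the lowest is Ifitm1.

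Joint responses in the control were found in 2.37% (1.72 to 3.17) of CD150+CD48-, 2.95% (2.05 to 4.10) of CD150-CD48-, 0.901% (0.186 to 2.61) of CD150+CD48+ and 1.64% (1.27 to 2.09) of CD150-CD48+ cells. The Mll3/4-labelled library gave 3.64%, 3.23%, 3.87% and 3.61% in the same order. Its interval lay clear of the control in CD150-CD48+ cells alone (2.48 to 5.05). In the other 3 groups the intervals of these 2 libraries overlapped.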

How the data were processed

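Single-cell libraries were made with the 10x 3' v3.1 chemistry and feature barcodes, per the labels. The deposited matrices hold raw UMI counts per gene, antibody and barcode, made by the authors with Cell Ranger 6.1.1 on mm10, per the submitters' processing notes; how barcodes were chosen before deposit is not given in the sources used here. Each library stands for 1 genotype, so no test between genotypes and no p-value was computed, and intervals cover counting error only. Kept cells had 1000 genes or more, with mitochondrial genes holding no more than 10% of UMIs, and no doublets were removed in the values reported. UMIs were summed over a library or a class of cells and divided by the summed total. Ratios have exact conditional binomial 95% intervals, levels exact Poisson and shares exact Clopper-Pearson ones. Marker classes need at least 3 markers after thinning to 3000 UMIs. Antibody counts were centred log ratios over 6 antibodies, split where a 2-component Gaussian mixture over all libraries crosses. Coordinates are from GENCODE mouse release 21 (GRCm38) and promoters from RefSeq (GRCm38.p6). The rule for names took the 5 highest and 5 lowest members of each comparison, the top 3 each way for antibody groups and joint responses, the 3 highest and 3 lowest pathway genes, and always Ifnar1, Ifnar2, Ly6a, Kmt2c and Kmt2d, with 1 gene of the rule not reported here; other members are described because the whole list is the subject, chosen after their values were seen. Members and lists were chosen with earlier results of these data known. Alternatives covered scaling, minimum level, cell filter, other-type cells, doublets, weighting, the joint rule, thinning and the antibody split. Python 3.11.15, numpy 2.4.6, scipy 1.17.1, pandas 2.3.3, scikit-learn 1.9.0, scanpy 1.11.5, matplotlib 3.10.9 and edgeR 4.0.16 (TMM factors only) were used.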

Additional observations from a re-analysis of the deposited data

How the results depend on the processing

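No paired analysis was possible because each genotype had 1 library and no test was made. The median member ratio of Mll3 was 0.16, and was 0.065 with TMM scaling, 0.066 with median-of-ratios scaling, 0.079 with totals without mitochondrial and ribosomal protein genes, and 0.032 with antibody groups weighted to control shares. That of Mll4 was -0.26, and was -0.12 under a stricter cell filter, -0.57 without cells with markers of other types, -0.053 with equal weight per cell and -0.52 with a minimum of 20 CPM. That of Mll3/4 was 0.09, was 0.20 with median-of-ratios scaling, which moved the median of all genes by 0.11, and turned to -0.19 with a minimum of 20 CPM, which left 19 members. Without cells of other types, Mll4 had 0 members higher (5.46% of all genes) and 4 lower (4.8%), and with no minimum 2 higher. With the minimum of 20 CPM, Mll3/4 had 2 higher. The shares of all genes under these changed minimums were not computed. Joint shares, in the order control, Mll3, Mll4, Mll3/4, were 7.87%, 9.27%, 7.47% and 9.57% for 2 core genes, 0.840%, 0.805%, 1.22% and 1.85% for 4, 20.6%, 23.3%, 13.6% and 10.2% for 6 of all members, 5.35%, 5.56%, 5.48% and 6.27% for cells thinned to 5000 UMIs, and 23.3%, 28.8%, 24.3% and 14.0% without thinning. Among these settings, the Mll3/4 share was highest except for 6 of all members and without thinning, where it was lowest. For 1 core gene, given above, it was below that of Mll3. The rule of 6 of all members also counts Ifitm1, Ifitm3 and Bst2, which were low in the Mll3/4-labelled library. Without cells of other types the Mll4 share was 2.08%. In CD150-CD48+ cells the Mll4 median of -0.18 was -0.036 under the stricter filter and -0.62 without other types. In CD150-CD48- cells the Mll3/4 median of -0.41 was -0.22 with antibody counts not centred, a setting not run for CD150+CD48+ cells of Mll3/4 (91 cells). Of 240 recomputed values of single members, 164 stayed within counting error and 76 moved. In 2 of these the sign turned, Irf7 (0.57 to -0.14) and Parp14 (0.17 to -0.26) of Mll4 without cells of other types, and neither had been past 2-fold. Where no value above shows it, the cause was not tested.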
